A study of Mus musculus with 12 samples.

Results

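Forebrain tumors of newborn mice in which WNT and sonic hedgehog (SHH) signalling had both been switched on were set against newborn forebrain without Cre recombinase. The comparison used 6 of the 12 arrays of the series, the 3 labelled GBS and the 3 labelled Control, and these labels alone chose them. GBS mice had the genotype hGFAP-cre::Ctnnb1(ex3)Fl/+SmoM2Fl/+, and their tissue is labelled as tumor. GS forebrains (hGFAP-cre::SmoM2Fl/+, 3 arrays) and GB forebrains (hGFAP-cre::Ctnnb1(ex3)Fl/+, 3 arrays) carried 1 of the alleles each and serve here as side values. Control forebrains carried both floxed alleles (Ctnnb1(ex3)Fl/+SmoM2Fl/+) and no Cre, so an effect of Cre itself cannot be told apart from that of the alleles. Every mouse was taken on postnatal day 0 without treatment, and the replicates are labelled as biological.

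The Cre transgene is driven by the human GFAP promoter, which in the mouse embryo is active in radial glia, the dividing precursors of forebrain neurons and glia. The SmoM2 allele encodes a Smoothened receptor that signals without ligand and so keeps the GLI transcription factors active, and loss of the floxed Ctnnb1 exon makes a stable beta-catenin that acts with TCF/LEF factors on WNT targets. Forebrain precursors are patterned by transcription factors such as Emx2, Pax6 and the Dlx family, and pass through neurogenic factors such as Neurog2 and Neurod6 on their way to neurons.

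Levels are log2 RMA values of 1 probe set per gene, and differences are GBS minus Control on that log2 scale. Smo read 7.45, 7.52 and 7.34 on the GBS arrays, against 7.0, 7.08 and 7.26 on the Control arrays, a difference of 0.32 ± 0.106 (SE, adjusted p = 0.0615). Ctnnb1 read 8.86, 9.19 and 8.93 in GBS, against 8.13, 8.22 and 7.89 in Control, and was higher by 0.91 ± 0.199 (adjusted p = 0.0138), a call that ended under 3 of 24 other settings, leaving out GBS replicate 2 or Control replicate 3 among them (adjusted p up to 0.071). Which transcript regions these probe sets read is not stated, so neither value checks the alleles. Xist lay between 4.85 and 4.94 in GBS and between 4.91 and 5.02 in Control, and the groups overlapped. Control replicate 3 deviated from its group together with GB replicate 2 and GS replicate 3 (correlations of the deviations across genes 0.739 to 0.833), and these arrays widen the spread that all tests share. The difference also moved with the level of a gene. Its median over all 14195 genes tested was -0.10, while it was -0.17 in the decile of lowest level, 0.20 in decile 9 and 0.43 in decile 10, the brightest. After quantile normalization of the table these medians were -0.08, 0.04 and 0.16. Olfactory and vomeronasal receptor genes, which mostly read array background in brain, had a median difference of -0.37 over the 207 tested. The array medians over all 1192 of them were 4.838 to 4.918 in GBS and 5.114 to 5.227 in Control.

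**Figure D1:**
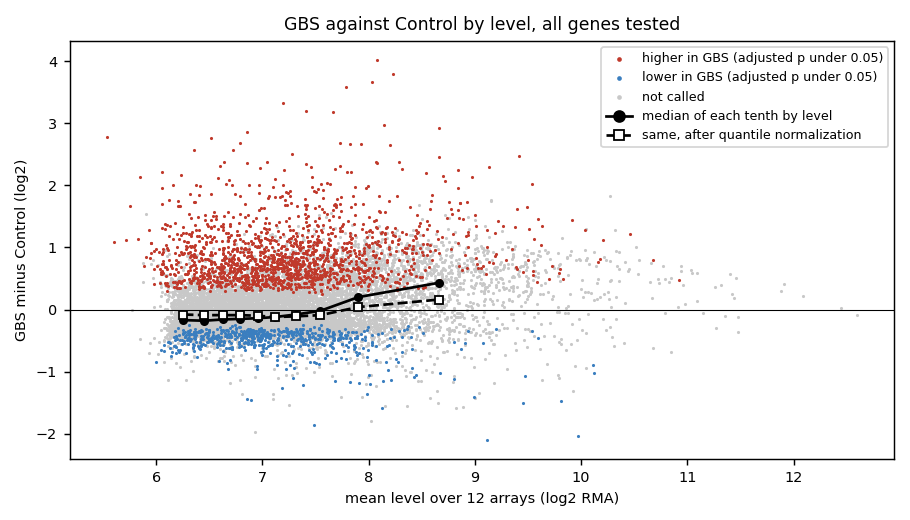
Each point is 1 of the 14195 genes tested, with its mean level over 12 arrays (log2 RMA) on the x axis and GBS minus Control (log2) on the y axis, and red and blue mark genes called higher and lower. The solid line joins the medians of the 10 level deciles and rises to 0.43 in the brightest, and the dashed line, after quantile normalization, rises to 0.16.

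The tumors differed from Control forebrain in many genes, and the large differences were almost all rises. Of 14195 genes, 1556 (11.0%) were higher and 617 (4.35%) lower in GBS at an adjusted p under 0.05 in limma. Rises of at least 2-fold numbered 487 (3.43%), while falls of at least 2-fold numbered 26 (0.183%). The 3 arrays of each group did not overlap for 4094 genes that were above Control (28.8%) and 5071 that were below (35.7%). Among the 7691 probe sets without a single gene symbol, which are not used further, 6.29% were higher and 2.70% lower. The median genomic span was 39.9 kb for rises of at least 2-fold, 32.2 kb for all rises and 30 kb for falls, against 20.8 kb for all genes tested, while the lower quartile of the falls, 7.33 kb, lay below the 7.88 kb of all genes. The counts rested on few arrays: leaving out GBS replicate 2 gave 631 higher and 78 lower. Leaving out GB replicate 2, an array of neither genotype, gave 3268 and 2865.

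The 25 largest rises, taken only from called genes whose GBS and Control arrays did not overlap, ran from 2.37 to 4.02. They are given by their known roles. Cyp1b1, a cytochrome P450 that oxidises retinoids and steroids (chromosome 17), read 10.56, 10.94 and 10.56 in GBS, against 6.47, 6.88 and 6.65 in Control, 16.2-fold higher (4.02 ± 0.258, adjusted p = 1.54e-05). Dcn, which encodes the matrix proteoglycan decorin (chromosome 10), read 10.65, 10.63 and 10.67 in GBS, against 6.36, 7.46 and 6.75 in Control (3.79 ± 0.418, adjusted p = 0.000354). Each GBS value of these genes lay more than 3 log2 units above every Control value. Adamts19, a secreted metalloprotease gene, rose by 3.20, Hmcn1, which encodes the matrix protein hemicentin, by 2.97, and Plod2, whose enzyme prepares collagen for cross-linking, by 2.86. The call of Hmcn1 ended under 4 of 24 other settings (adjusted p up to 0.102). Its 77 probe sets gave differences from -0.13 to 3.29, with 75 of them positive.

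Mybpc1, a myosin-binding protein gene of slow muscle, read 9.87, 10.15 and 10.32 in GBS, against 6.45, 6.51 and 6.63 in Control (3.58 ± 0.288, adjusted p = 4.92e-05). Other muscle genes did not follow it: Myh8 differed by -0.29, Acta1 by -0.17 and Ckm by -0.25, and none of the 3 passed the test. Adgrv1, a very large adhesion receptor, rose by 3.33 (adjusted p = 7.41e-06), and Tec, a cytoplasmic tyrosine kinase, by 2.69 (adjusted p = 1.54e-05). Stxbp4, which binds syntaxin, rose by 2.92, the endosomal adaptor gene Tom1l1 by 2.67, the actin-capping gene Tmod3 by 2.66 and the caveolar gene Cavin2 by 2.57. Clic6, an intracellular chloride channel gene, rose by 2.38.

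Chd7, a chromatin remodeller mutated in CHARGE syndrome (chromosome 4), read 10.70, 11.05 and 10.84 in GBS, against 8.46, 8.47 and 8.23 in Control (2.48 ± 0.265, adjusted p = 0.000294), and all of its 30 probe sets were positive, from 0.56 to 4.26. Brd7, a bromodomain subunit of the PBAF remodelling complex, read 10.24, 10.41 and 10.40 in GBS, against 7.97, 8.07 and 7.62 in Control (2.46 ± 0.312, adjusted p = 0.000849). Pcgf5, a Polycomb group gene, rose by 2.38 (adjusted p = 7.19e-05). Cenpk of the kinetochore rose by 2.58, the centrosome gene Cep112 by 2.68, and Top2a, the topoisomerase that untangles replicated DNA, by 2.64. The other probe set of Top2a gave 0.80, so the size of its rise is uncertain. GBS replicate 2 was the highest GBS array in 22 of the 25 genes, and 23 of the 25 stayed called under all 24 other settings.

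Set against the genotypes with 1 allele, 22 of the 25 genes were also higher in GBS than in GS (percent of all genes tested 3.56) and 24 were higher than in GB (9.60 percent). These comparisons use the same GBS arrays, so the counts are not independent of the choice of genes. Cyp1b1 read 10.56 to 10.94 in GBS, while it read 6.85 to 7.09 in GS and 7.32 to 8.58 in GB, and it exceeded GS by 3.74 (adjusted p = 2.76e-05) and GB by 2.69 (adjusted p = 0.000317). Tec read 8.58 to 9.22 in GBS, while it read 5.90 to 6.11 in GS and 5.98 to 6.39 in GB, and its excess was 2.8 over GS and 2.6 over GB (adjusted p = 1.63e-05 and 4.41e-05). Neither gene passed the test in GS or GB against Control, and GB was in between for Cyp1b1, at 1.33 above Control (adjusted p = 0.661). The exceptions among the 25 were Stxbp4 and Smc4 against GS (1.75 and 1.22, adjusted p = 0.0994 and 0.163) and Hmcn1 against both (2.20 and 1.85, adjusted p = 0.0861 and 0.0736).

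The 15 largest falls, also taken only from called genes without overlap between the groups, ran from -2.09 to -1.14. Vsnl1, a neuronal calcium sensor gene, read 8.03, 6.81 and 8.53 in GBS, against 10.13, 9.84 and 9.68 in Control (-2.09 ± 0.604, adjusted p = 0.0409). Luzp2, whose role is less clear, read 6.09, 5.60 and 6.00 in GBS, against 7.13, 7.66 and 7.27 in Control (-1.46 ± 0.276, adjusted p = 0.00725). GBS replicate 2 was the lowest GBS array in each of the 15. Among the others were the axon genes Gap43 (-1.48) and Shtn1 (-1.35), the adhesion genes Cdh12 (-1.44) and Ntm (-1.15), the NMDA receptor gene Grin3a (-1.26), the guidance cue gene Sema3c (-1.22) and the calcium-binding gene Necab1 (-1.18). Of the 15, only Luzp2 kept its call under all 24 other settings, while 9 were also lower than in GS (1.51% of all genes were) and 2, Luzp2 and Necab1, lower than in GB (3.12%). In whole tissue, fewer cells of a type and less RNA per cell cannot be told apart.

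**Figure D2:**
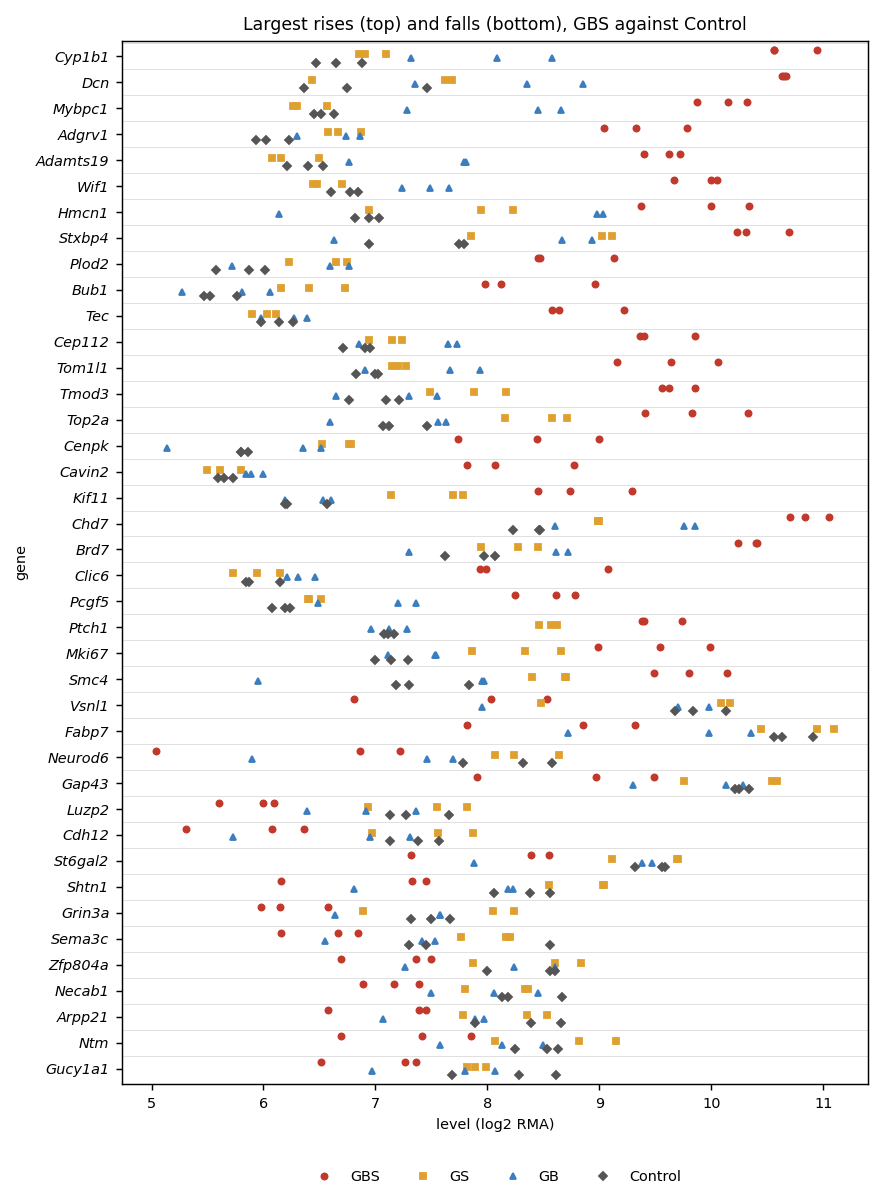
Levels (log2 RMA) of the 25 largest rises (top) and 15 largest falls (bottom), 1 row per gene, with 1 symbol for each of the 3 arrays of GBS, GS, GB and Control. Only genes without overlap between GBS and Control were ranked, so the GBS circles lie right of all Control diamonds in the rises. They lie left of them in the falls. In the falls the GBS arrays can lie far apart, as for Neurod6 from 5.04 to 7.22.

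Transcription factor genes as a whole changed about as often as other genes. Of 778 tested members of 20 families, 85 were higher (10.9%) and 34 lower (4.37%), against 11.0% and 4.35% of all genes. The families were not alike. Some had called members on both sides, as the forkhead genes did (2 higher and 6 lower), and others on 1 side only. Called or not, 481 of the 778 differences were negative and 297 positive. Negative were 31 of 36 forkhead genes and all 18 Hox genes, while 160 of 261 Zfp genes were positive. The 15 largest rises, 1.34 to 2.35, had no overlap between groups, and 10 of them stayed called under all 24 other settings. The 12 largest falls, -1.85 to -0.57, also had no overlap, but only Esrrg stayed called under all of them. GBS replicate 2 was the most extreme GBS array in each of these 27 genes.

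Prox1, a homeobox factor of hippocampal granule cells (chromosome 1), read 8.64, 8.92 and 8.61 in GBS, against 6.61, 6.32 and 6.19 in Control (2.35 ± 0.248, adjusted p = 0.000264). Nhlh1, a basic helix-loop-helix (bHLH) factor of newly formed neurons, read 8.02, 8.84 and 8.34 in GBS, against 6.31, 6.25 and 6.33 in Control (2.10 ± 0.174, adjusted p = 5.93e-05). Zic1, a zinc-finger factor of the dorsal midline and cerebellar precursors, read 8.73, 9.76 and 9.15 in GBS, against 6.87, 7.21 and 7.69 in Control (1.95 ± 0.262, adjusted p = 0.00112). All 3 genes were at least 1 log2 unit above Control on every GBS array. Their side values differed. Nhlh1 read 5.95 to 6.31 in GS and 7.54 to 7.74 in GB, so that GBS exceeded GS by 2.26 and GB by 0.76 (adjusted p = 3.96e-05 and 0.0222). Prox1 read 7.17 to 7.66 in GS and 6.45 to 7.47 in GB, below GBS by 1.27 and 1.62 (adjusted p = 0.0146 and 0.00364).

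The promoters of Nhlh1, Zic1 and Top2a are shown because these genes were among the large rises and each promoter holds several CCAAT boxes, the element bound by NF-Y. They were chosen after their values were seen. Sequences are the 300 bases around the RefSeq start, most of them upstream (GRCm38.p6), and capitals mark CCAAT on either strand, so that ATTGG is the same box on the other strand. Nhlh1 lies at chr1:172057547-172057846 (minus strand), Zic1 at chr9:91365719-91366018 (minus strand) and Top2a at chr11:99024140-99024439 (minus strand).
Nhlh1: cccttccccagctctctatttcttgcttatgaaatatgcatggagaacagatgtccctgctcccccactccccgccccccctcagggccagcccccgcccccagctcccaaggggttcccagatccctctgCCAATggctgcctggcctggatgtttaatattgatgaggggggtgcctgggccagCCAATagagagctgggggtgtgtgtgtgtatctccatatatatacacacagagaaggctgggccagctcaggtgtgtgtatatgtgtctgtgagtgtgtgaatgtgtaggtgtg
Zic1: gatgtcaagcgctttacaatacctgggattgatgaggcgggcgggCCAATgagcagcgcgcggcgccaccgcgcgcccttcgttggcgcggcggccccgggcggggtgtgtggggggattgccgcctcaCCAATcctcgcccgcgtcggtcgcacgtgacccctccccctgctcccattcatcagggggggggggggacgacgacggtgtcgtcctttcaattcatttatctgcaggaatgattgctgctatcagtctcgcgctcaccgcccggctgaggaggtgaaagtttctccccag
Top2a: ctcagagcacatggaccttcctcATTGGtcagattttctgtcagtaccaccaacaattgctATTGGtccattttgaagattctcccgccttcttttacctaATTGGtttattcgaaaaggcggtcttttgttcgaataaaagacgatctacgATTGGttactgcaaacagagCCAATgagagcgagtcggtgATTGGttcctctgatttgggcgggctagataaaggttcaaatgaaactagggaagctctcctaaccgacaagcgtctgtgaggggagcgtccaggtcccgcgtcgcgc
Nhlh1 and Zic1 held 2 boxes each and Top2a held 6. At least 1 box was present in 53.0% of the 383 promoters of genes at least 2-fold higher in GBS, in 47.6% of the 1272 promoters of all higher genes and in 37.5% of the 461 promoters of lower genes, against 41.4% of the 11253 promoters of tested genes that the RefSeq table holds.

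Of the 4 tested Zic genes, Zic1 and Zic2 rose, Zic2 by 1.34 (adjusted p = 0.000862), while Zic4 differed by 0.31 and Zic5 by -0.21 with no call. Zic4 and Zic5 had 2 probe sets each that disagreed in sign, so their levels are uncertain. Of 10 LIM homeobox genes, Lhx9, a factor of thalamic and early cortical neurons, rose by 1.92 (adjusted p = 0.00531), Lhx2, a selector of cortical identity, by 0.58 (adjusted p = 0.0418), and Isl1, of motor and striatal neurons, fell by 0.91 in log2 units (adjusted p = 0.0481). The calls of Lhx2 and Isl1 ended under 12 and 13 of 24 other settings. Other homeobox genes had 8 members higher and 8 lower of 99, with Emx2 (1.88, adjusted p = 2.94e-05) and Pax6 (1.48, adjusted p = 0.000543) on one side and the interneuron genes Dlx5 (-0.60, adjusted p = 0.0428) and Dlx6 (-0.84, adjusted p = 0.0222) on the other. Without GBS replicate 2, 3 of the 99 were called higher and 0 lower, and with the replicate block 4 and 0. All 18 tested Hox genes, which pattern the hindbrain and spinal cord, were without a call, with differences from -0.53 to -0.05.

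Of 52 tested bHLH genes 4 rose (7.69%, against 11.0% of all genes) and 5 fell (9.62%, against 4.35%), with a median of -0.18. Those that rose were Nhlh1, the neurogenic factor gene Neurog2 (0.92, adjusted p = 0.00321) and the E protein genes Tcf12 and Tcf4, whose products pair with other bHLH factors (1.72 and 1.34, adjusted p = 0.008 and 0.0199). Neurod6, a factor of postmitotic cortical neurons, read 6.86, 5.04 and 7.22 in GBS, against 8.32, 8.58 and 7.78 in Control (-1.85 ± 0.564, adjusted p = 0.0487), and Olig1 of the oligodendrocyte lineage fell by 0.44 (log2; adjusted p = 0.0137). The groups did not overlap for Neurod6, but GBS replicate 2 lay far below the other GBS arrays and the call ended under 14 of 24 other settings. Without GBS replicate 2, 0 of the 52 bHLH genes were called lower. Other factors of maturing neurons that fell were Tbr1 (-1.09, adjusted p = 0.0429), Myt1l (-1.03, adjusted p = 0.0163) and Zfp804a (-1.20, adjusted p = 0.0469), whose calls ended under 10, 3 and 13 other settings.

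Of 36 forkhead genes 6 fell (16.7%, against 4.35% of all genes) and 2 rose (5.56%, against 11.0%), and 1 fell without GBS replicate 2 and 2 with the replicate block. Foxp2, a language-linked factor of deep-layer and striatal neurons, fell by 0.96, Foxp1 by 0.86 and Foxp4 by 0.44 in log2 units (adjusted p = 0.0205, 0.0335 and 0.00735). Foxo1, an effector of insulin signalling, read 8.32, 8.61 and 8.19 in GBS, against 7.11, 7.06 and 7.15 in Control (1.27 ± 0.124, adjusted p = 0.000166). Foxm1, a driver of mitotic gene expression, rose by 0.84 (adjusted p = 0.0113). Foxo1, Foxm1 and Foxp4 kept their calls under all 24 other settings.

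Nfia, which switches precursors to gliogenesis, rose by 1.54 (adjusted p = 0.000245), and its relatives Nfib by 1.29 and Nfix by 0.77 (adjusted p = 0.026 and 0.0373, calls that ended under 7 and 10 other settings). Nfe2l2, which encodes the oxidative stress factor NRF2, read 8.18, 8.85 and 8.07 in GBS, against 6.60, 6.60 and 6.61 in Control (1.77 ± 0.21, adjusted p = 0.000543). Among ETS genes 3 of 19 rose and 0 fell, with a median of -0.05 and with Gabpa at 1.59 (adjusted p = 0.0176) and Elf2 at 1.02 (adjusted p = 0.000371). The STAT, IRF, NF-kappaB and SMAD families had 6 of 28 higher (21.4%) and 0 lower, with a median of -0.05. Among the 6 were Smad5 of BMP signalling (1.09, adjusted p = 0.00618), Nfatc3 (0.90, adjusted p = 0.00369) and Irf2 (0.82, adjusted p = 0.00237). Rest, which represses neuronal genes, rose by 0.85 (adjusted p = 0.00212), and Tead1, a partner of YAP, by 1.06 (adjusted p = 0.00518). Of 261 Zfp zinc-finger genes 33 rose (12.6%) and 3 fell (1.15%), with a median of 0.10, and only 8 rose with the receptor-gene level as a covariate.

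Nuclear receptors had 1 member higher and 3 lower of 29. Esrrg, an orphan receptor of oxidative metabolism, read 6.67, 6.28 and 6.67 in GBS, against 7.22, 7.31 and 7.27 in Control (-0.73 ± 0.109, adjusted p = 0.00214). It was lower in GBS than in GS and GB as well (-0.54 and -0.57, adjusted p = 0.0172 and 0.0112). The thyroid hormone receptor gene Thra fell by 0.70 in log2 units (adjusted p = 0.0238, a call that ended under 6 other settings), and Nr2c1 rose by 0.75 (adjusted p = 0.00127).

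**Figure D3:**
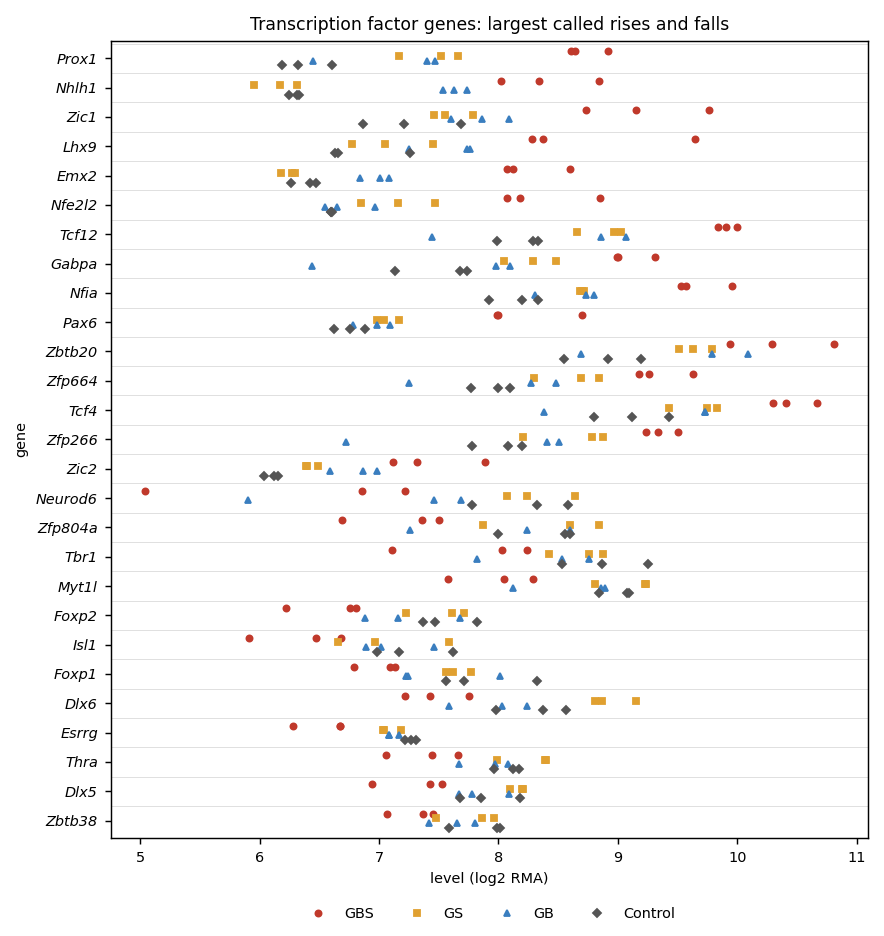
Levels (log2 RMA) of the transcription factor genes with the 15 largest called rises (Prox1 to Zic2) and 12 largest called falls (Neurod6 to Zbtb38), with 1 symbol per array of GBS, GS, GB and Control. For Nhlh1 the GB arrays at 7.54 to 7.74 lie between GBS and Control, while the GS arrays at 5.95 to 6.31 do not.

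Ribosomal protein genes had 24 of 58 tested members higher (41.4%) and 0 lower, with a median difference of 0.52, and their median level was 8.99, 9.42 and 9.16 on the GBS arrays, against 8.58, 8.94 and 8.66 on the Control arrays. The lowest GBS array lay just above the highest Control array. Rpl7 rose by 1.12 (adjusted p = 0.00765), Rpl23a by 0.80 (adjusted p = 0.00806) and Rps18 by 0.70 (adjusted p = 0.00748). Of the 58 genes 40 lay in the brightest decile of level, where the median over all genes was 0.43, and 13 were called after quantile normalization, 4 with the receptor-gene level as a covariate and 3 without GBS replicate 2. Ribosomal protein genes have many near-identical processed copies, so the probe sets may read several of them. The part of the level trend in these rises was not tested.

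Splicing genes of the SR and HNRNP families had 13 of 42 higher (31.0%) and 0 lower, with a median of 0.71. Hnrnpf, which controls exon choice, read 10.09, 10.61 and 10.15 in GBS, against 9.11, 9.29 and 9.06 in Control (1.13 ± 0.147, adjusted p = 0.000963). The branch-site factor genes Sf3a3, Sf3b3 and Sf3a1 rose by 0.85, 0.77 and 0.65 (adjusted p = 0.00478, 0.00446 and 0.00528). Translation initiation factors had 9 of 46 higher (19.6%) and 0 lower (median 0.51), with Eif2b3, part of the exchange factor of eIF2, at 0.73 (adjusted p = 0.00391). Aminoacyl-tRNA synthetases had 7 of 31 higher and 0 lower (median 0.20). The RNA helicase class had 4 of 42 higher (9.52%), near the share of all genes. With the receptor-gene level as a covariate the initiation factor, synthetase and helicase medians were 0.04, 0.07 and 0.10, with 2, 0 and 2 members higher.

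Nucleoporins had 7 of 19 higher (36.8%, against 11.0% of all genes) and 0 lower (median 0.49). Nup155 led them at 1.09 (adjusted p = 0.0113). Importins and exportins had 6 of 23 higher and 0 lower (median 0.64). Kpna2, the import adaptor importin alpha, read 8.44, 9.03 and 8.01 in GBS, against 6.66, 7.08 and 6.90 in Control (1.61 ± 0.213, adjusted p = 0.00105), and Xpo4 rose by 1.02 (adjusted p = 0.0038). Proteasome subunits had 8 of 38 higher and 1 lower (median 0.52), and the 1 lower was Psmb11, a thymus-specific subunit, at -0.46 (adjusted p = 0.0451). Heat shock and chaperonin genes had 10 of 75 higher (13.3%, against 11.0% of all genes) and 2 lower (median 0.37). The endoplasmic reticulum chaperone gene Hspa5 rose by 1.35 and Hsph1 by 1.19 (adjusted p = 0.0133 and 0.00516). With the receptor-gene level as a covariate the medians of the splicing, importin and proteasome classes were 0.05, -0.01 and -0.03. That of the nucleoporins was 0.17, with 0 members called. Without GBS replicate 2, 1 nucleoporin was called higher.

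Mitochondrial ribosomal proteins and respiratory complexes III to V had a share of called rises near that of all genes (11.0%). Complex I had a smaller one. The medians of these classes lay above the -0.10 of all genes. Mitochondrial ribosomal proteins had 7 of 68 higher (10.3%) and respiratory complex I had 1 of 30 (3.33%), Ndufb11 at 0.87 (adjusted p = 0.0108). Complexes III to V had 4 of 38 higher (10.5%) and 1 lower. The 3 medians were 0.09, 0.11 and 0.34 in this order. Of the 38 genes of complexes III to V, 17 lay in the brightest decile of level, where the median over all genes was 0.43.

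Structural maintenance and cohesin genes had 7 of 20 higher (35.0%) and 0 lower with a median of 1.11, and 18 of the 20 were above Control on all arrays (28.8% of all genes were). Of the 20, 10 lay in the brightest decile of level, where the median over all genes was 0.43. The condensin genes Ncapg, Smc4 and Smc2, which compact mitotic chromosomes, rose by 2.0, 2.37 and 1.83 (adjusted p = 0.000571, 0.00718 and 0.00431). Chromatin remodelling subunits had 11 of 47 higher (23.4%) and 1 lower (median 0.46). Hells, a helicase of DNA methylation, read 8.03, 9.05 and 7.62 in GBS, against 5.82, 6.00 and 5.93 in Control (2.32 ± 0.324, adjusted p = 0.00148). Baz1a, of the ACF remodeller, rose by 1.83 (adjusted p = 6.32e-05). The member that fell was Chd5, a remodeller of neurons, at -0.56 (adjusted p = 0.00837). With the receptor-gene level as a covariate 4 structural maintenance and cohesin genes were higher (median 0.17), and 5 remodelling genes were higher and 4 lower (median 0.04). Without GBS replicate 2 each class had 5 genes higher.

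Lysine demethylases had 5 of 27 higher (18.5%) and 0 lower (median 0.55), with Kdm3a, a hypoxia-induced eraser of H3 lysine methylation, at 1.66 and Kdm7a at 1.40 (adjusted p = 0.00256 and 0.0011). Lysine methyltransferases had 7 of 38 higher and 1 lower (median 0.25). The heterochromatin enzyme gene Suv39h2 rose by 1.28 (adjusted p = 0.00379), and Ezh2, the Polycomb methyltransferase, by 1.18 (adjusted p = 0.0263, a call that ended under 7 other settings). With the receptor-gene level as a covariate 2 demethylases and 1 methyltransferase were higher, and the same numbers without GBS replicate 2. Deacetylases and sirtuins had 4 of 18 higher and 0 lower, with a median of -0.07 and Hdac1 at 0.75 (adjusted p = 0.0056). Fanconi and RecA-like repair genes had 6 of 23 higher and 0 lower, with Xrcc5, the Ku80 gene of end joining, at 7.71, 8.34 and 7.82 in GBS, against 6.08, 6.29 and 6.03 in Control (1.82 ± 0.263, adjusted p = 0.0018).

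Centrosomal CEP genes had 12 of 29 higher (41.4%) and 0 lower (median 0.47), and only 2 of the 29 lay in the brightest decile. Cep112 read 9.40, 9.85 and 9.36 in GBS, against 6.95, 6.91 and 6.71 in Control (2.68 ± 0.218, adjusted p = 5.12e-05), and Cep162, of the ciliary transition zone, rose by 1.72 (adjusted p = 0.00321). Intraflagellar transport and BBSome genes, which build the primary cilium through which Smoothened signals, had 6 of 22 higher (27.3%) and 0 lower (median 0.28). Ift74 rose by 1.86 and the retrograde motor gene Dync2h1 by 1.21 (adjusted p = 0.00109 and 0.00614). With the receptor-gene level as a covariate 5 CEP and 4 transport and BBSome genes were higher, and without GBS replicate 2, 6 and 4. Kinesins had 8 of 32 higher and 1 lower. The mitotic motor genes Kif11, Kif18a, Kif4 and Kif20b rose by 2.50, 2.16, 2.01 and 1.87, while Kif26b fell by 0.45 (log2; adjusted p = 0.0143). Tubulins had 0 of 13 higher and 4 lower, and 0 were lower after median centring, with the replicate block or without GBS replicate 2. With the receptor-gene level as a covariate 7 were lower (median -0.50), and with only the 6 GBS and Control arrays 8. Tubb2a and Tubb2b, the tubulins of young neurons, fell by 1.02 and 0.89 in log2 units (adjusted p = 0.0432 and 0.0411).

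**Figure D4:**
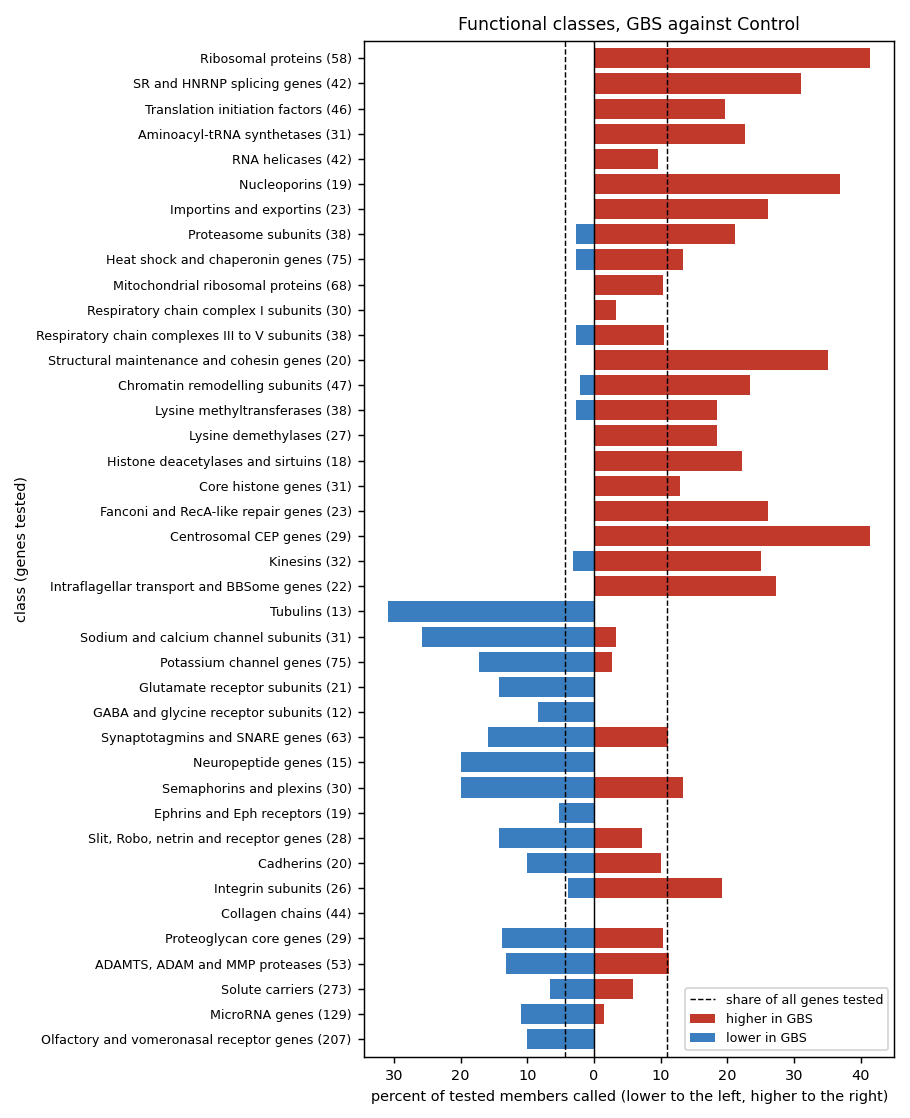
Percent of the tested members of 40 classes called higher (red, to the right) and lower (blue, to the left) in GBS against Control, with the number tested in parentheses and dashed lines at 11.0% and 4.35%, the shares of all genes tested. Ribosomal and CEP genes reach 41.4% higher, and tubulins reach 30.8% lower.

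Sodium and calcium channel subunits had 8 of 31 lower (25.8%) and 1 higher, with a median of -0.35. Cacna1d, an L-type calcium channel gene, read 6.94, 6.5 and 6.92 in GBS, against 7.48, 7.47 and 7.41 in Control (-0.67 ± 0.131, adjusted p = 0.0085). Potassium channel genes had 13 of 75 lower (17.3%) and 2 higher (median -0.30), and 69 of the 75 differences were negative. Kcnk9, a leak channel gene of cerebellar granule cells, stood against them at 7.76, 8.30 and 8.01 in GBS, against 6.86, 6.74 and 6.92 in Control (1.18 ± 0.151, adjusted p = 0.000862). Glutamate receptor subunits had 3 of 21 lower (14.3%) and 0 higher (median -0.39): Grin3a, Grm5 and the kainate receptor gene Grik3, at -1.26, -1.05 and -0.70 (adjusted p = 0.0359, 0.0342 and 0.0189). GABA and glycine receptors had 1 of 12 lower, Gabbr2 at -0.68 (adjusted p = 0.0457).

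Neuropeptide genes had 3 of 15 lower and 0 higher. Cck, for cholecystokinin, read 6.16, 6.09 and 6.26 in GBS, against 7.17, 6.77 and 6.99 in Control (-0.81 ± 0.116, adjusted p = 0.00177), and Npy fell by 0.65 (log2; adjusted p = 0.0116). Beside these classes stands the fall of the receptor genes that read background, with 21 of 207 lower (10.1%), 0 higher and a median of -0.37. The medians of the potassium channel, neuropeptide and sodium and calcium channel classes, -0.30, -0.32 and -0.35, were not below that of these receptor genes. Those of the glutamate receptor class, -0.39, and of the GABA and glycine receptor class, -0.40, were only just below it. Without GBS replicate 2 the calls of falls were 1 of the sodium and calcium channel genes and 0 of the potassium channel genes. With the receptor-gene level as a covariate they were 16 and 12, with medians of -0.43 and -0.10. The glutamate receptor and the GABA and glycine receptor classes had 1 and 0 lower without GBS replicate 2. With the covariate each had 10 lower, with medians of -0.76 and -1.28. Cacna1d and Cck kept their calls under all 24 other settings. The part of the background level in these falls was not tested.

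Synaptotagmins and SNARE genes moved both ways, with 7 of 63 higher (11.1%) and 10 lower (15.9%). The rises included Stxbp6 (1.37, adjusted p = 0.00244), Snap23, the SNAP-25 relative of cells other than neurons (1.42, adjusted p = 0.00321), and Stx4a (0.66, adjusted p = 0.00185).

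**Figure D5:**
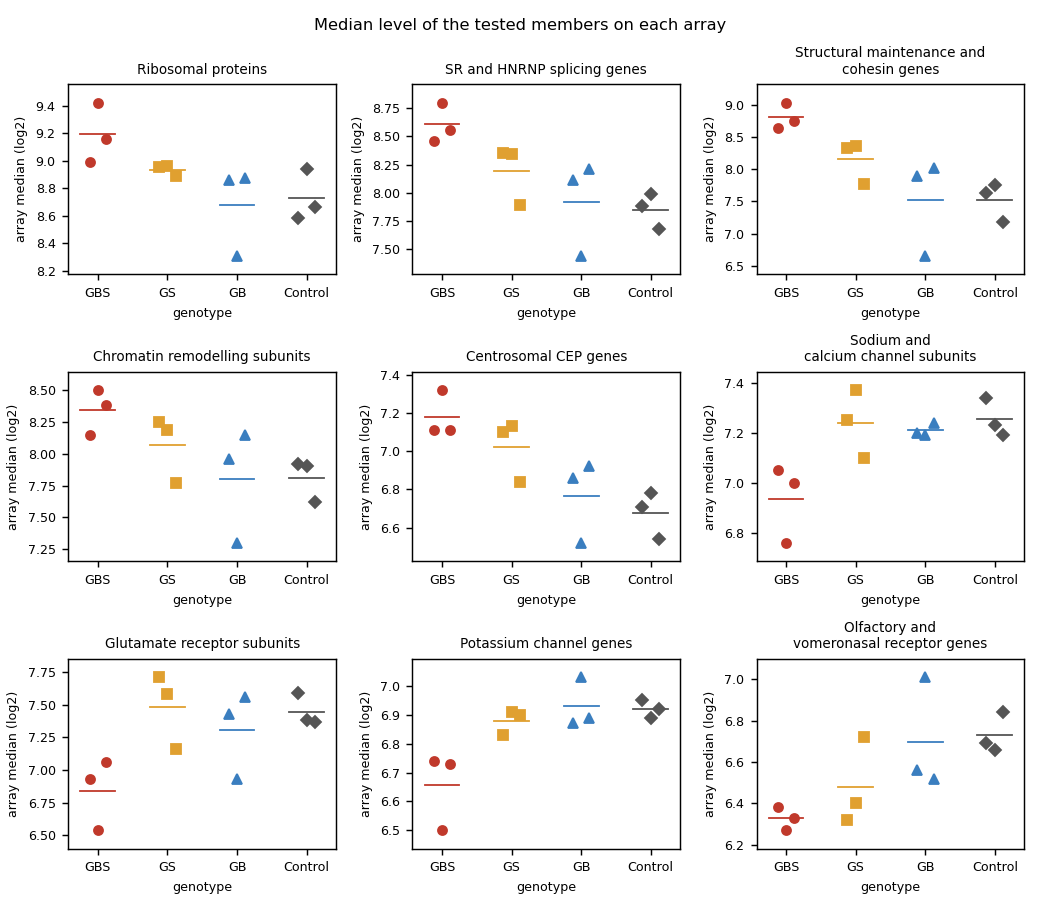
Median level (log2 RMA) of the tested members of 9 classes on each array of GBS, GS, GB and Control, with 1 point per array and a line at the mean of 3. GBS arrays lie above all Control arrays for the first 5 classes, with ribosomal proteins at 8.99 to 9.42 against 8.58 to 8.94, and below them for the channel, glutamate receptor and olfactory and vomeronasal receptor classes.

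Axon guidance and adhesion genes had members far apart in both directions. Slit2, a secreted repellent of axons, read 9.04, 9.42 and 9.08 in GBS, against 7.03, 6.68 and 7.02 in Control (2.27 ± 0.258, adjusted p = 0.000412), and Dcc, a netrin receptor, read 10.25, 10.88 and 10.43 in GBS, against 8.61, 8.13 and 7.91 in Control (2.30 ± 0.41, adjusted p = 0.00536). In their class of 28 genes these 2 rose and 4 fell, among them Unc5c, another netrin receptor, by 0.73 in log2 units (adjusted p = 0.0167). Semaphorins and plexins had 4 of 30 higher (13.3%, against 11.0% of all genes) and 6 lower (20%, against 4.35%). Plxnc1 at 1.52 and Sema6a at 1.05 (adjusted p = 0.00798 and 0.00252) stood against Sema3c. Cadherins had 2 of 20 higher (10%, against 11.0% of all genes) and 2 lower (10%, against 4.35%). Cdh1, the E-cadherin of epithelia, read 8.67, 9.59 and 8.21 in GBS, against 6.54, 6.55 and 6.65 in Control (2.24 ± 0.262, adjusted p = 0.000491), while it was 6.40 to 6.68 in GS and 6.87 to 6.94 in GB. Cdh6 fell by 0.65 in log2 units (adjusted p = 0.00653).

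Large changes of the extracellular matrix lay in single genes, while the collagen chains shifted slightly down without a call. None of 44 collagen chains was called by limma, with differences of -0.45 to 0.14 and a median of -0.26. Of these, 43 were negative, and 33 lay below Control on all arrays (35.7% of all genes did). With only the 6 GBS and Control arrays 20 were called lower. With the receptor-gene level as a covariate 0 were called and the median was 0.05. Ltbp1, which stores TGF-beta in the matrix, read 8.95, 9.86 and 8.98 in GBS, against 7.13, 6.79 and 7.22 in Control (2.21 ± 0.227, adjusted p = 0.000234). The cell surface proteoglycan gene Gpc4 rose by 1.45 (adjusted p = 2.94e-05), while the secreted proteoglycan gene Spock1 and the brain-specific Cspg5 fell by 0.57 and 0.38 (log2; adjusted p = 0.00353 and 0.01). ADAMTS, ADAM and MMP proteases had 6 of 53 higher (11.3%, against 11.0% of all genes) and 7 lower (13.2%, against 4.35%). Adamts6 rose by 1.54 (adjusted p = 0.00252) beside Adamts19. Integrin subunits had 5 of 26 higher (19.2%, against 11.0% of all genes) and 1 lower (3.85%, against 4.35%). Itga9 rose by 0.90 and Itgav by 0.66 (adjusted p = 0.00295 and 0.00534).

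In metabolism, glycolysis genes had 2 of 14 higher (14.3%, against 11.0% of all genes) and 1 lower. Cholesterol synthesis had 0 of 16 either way at an adjusted p under 0.05 in limma. Pgk1, the phosphoglycerate kinase gene, read 9.63, 10.42 and 9.31 in GBS, against 8.17, 8.21 and 7.74 in Control (1.74 ± 0.295, adjusted p = 0.00418). Ldha, for the lactate dehydrogenase subunit of glycolytic tissue, read 9.44, 9.92 and 9.16 in GBS, against 8.11, 8.18 and 7.96 in Control (1.43 ± 0.178, adjusted p = 0.000755). The neuronal enolase gene Eno2 fell by 0.35 in log2 units (adjusted p = 0.0285). Both rises held under all 24 other settings, and Ldha exceeded GS by 1.06 and GB by 1.35 (adjusted p = 0.00735 and 0.00167).

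The Ldha promoter is shown because it holds several copies of ACGTG, the core of the hypoxia-response element. It lies at chr7:46845554-46845853 (plus strand, RefSeq, GRCm38.p6), and capitals mark ACGTG on either strand.
Ldha: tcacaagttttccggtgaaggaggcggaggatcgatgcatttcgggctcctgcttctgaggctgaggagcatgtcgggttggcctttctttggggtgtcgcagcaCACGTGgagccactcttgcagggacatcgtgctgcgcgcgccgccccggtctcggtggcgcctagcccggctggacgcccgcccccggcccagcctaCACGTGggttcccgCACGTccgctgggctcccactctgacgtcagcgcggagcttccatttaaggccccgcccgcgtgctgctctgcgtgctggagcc
It held 5 matches in 3 stretches, since CACGTG reads as ACGTG on both strands. ACGTG was present in 31.5% of promoters of higher genes and 24.3% of those of lower genes, against 27.1% of all tested genes with a promoter. The ETS motif CCGGAAGT was present in 10.8% and 0.434%, against 7.30%, the E2F motif TTTCCCGC in 3.30% and 0.434%, against 2.08%, and the TCF/LEF motif CTTTGAT in 4.01% and 3.25%, against 3.19%. The GLI motif GACCACCCA was present in 2 promoters of higher genes, 2 of lower genes and 25 of all. Among the 383 promoters of genes at least 2-fold higher, the ETS motif was present in 7.83%, near the share of all genes. In that set the E2F motif was present in 2.87%, the TCF/LEF motif in 4.18%, ACGTG in 31.3% and the GLI motif in 0. All motifs were searched on both strands of the same 300 bases, and the median GC content of these promoters was 61.7% for higher and lower genes and 60% for all.

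Retinoid and growth factor genes were few. Of 10 genes that handle retinoic acid, a patterning signal, 2 rose and 1 fell. Beside Cyp1b1, Rdh10, which makes its precursor retinaldehyde, read 8.40, 9.38 and 8.43 in GBS, against 7.13, 7.16 and 7.29 in Control (1.54 ± 0.246, adjusted p = 0.00299), and Crabp1, which binds retinoic acid in the cell, fell by 1.06 on the log2 scale. All 3 calls held under the 24 other settings. Insulin-like growth factor genes had 4 of 13 higher and 1 lower: among the rises were the adaptor gene Irs1 at 0.97, the binding protein gene Igfbp7 at 0.87 and the receptor gene Igf1r at 0.61 (adjusted p = 0.000492, 0.00482 and 0.0203), and the ligand gene Igf1 fell by 0.40 (log2; adjusted p = 0.018). Gsta4 and Gstm5, glutathione transferase genes, rose by 1.69 and 1.29 (adjusted p = 0.00214 and 0.00877). Among 273 solute carriers 16 rose (5.86%, against 11.0% of all genes) and 18 fell (6.59%, against 4.35%). The nucleotide sugar carrier gene Slc35b1 (1.5, adjusted p = 0.00273) and the glutamine carrier gene Slc1a5 (1.05, adjusted p = 0.00163) were among the rises.

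MicroRNA genes, read here as their hairpin loci, had 2 of 129 higher (1.55%) and 14 lower (10.9%), with a median of -0.31. The mir-99/let-7/mir-125 clusters and mir-128 are shown, since their members share seeds or lie close together. These loci were chosen after their values were seen. Mature sequences are from RefSeq (GRCm38.p6), with the seed, bases 2 to 8, in capitals.
mmu-miR-99a-5p: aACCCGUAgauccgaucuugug
mmu-miR-99b-5p: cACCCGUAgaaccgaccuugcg
mmu-miR-125b-5p: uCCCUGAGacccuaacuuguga
mmu-miR-125a-5p: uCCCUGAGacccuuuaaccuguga
mmu-let-7c-5p: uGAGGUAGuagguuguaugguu
mmu-miR-128-3p: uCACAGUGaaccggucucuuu
Members of each pair, 99a with 99b and 125a with 125b, share a seed and so a large part of their predicted targets. Mir99ahg, a transcript near Mir99a, Mirlet7c-1 and Mir125b-2 on chromosome 16, read 8.85, 8.97 and 8.74 in GBS, against 8.23, 7.86 and 7.58 in Control (0.96 ± 0.15, adjusted p = 0.00267), and its 4 probe sets were all positive. The hairpin Mir99a, 40.5 kb beyond the RefSeq span of that transcript, differed by -0.01 (adjusted p = 0.982), with values of 5.14 to 7.10 in GBS and 5.40 to 6.33 in Control. Mirlet7c-1 and Mir125b-2 were not tested. On chromosome 17, Mir99b and Mir125a, 0.555 kb apart, fell by 0.41 and 0.43 in log2 units (adjusted p = 0.0208 and 0.0436). Mir128-2, inside the neuronal gene Arpp21 on chromosome 9, fell by 0.50 (log2; adjusted p = 0.0282), and Arpp21 by 1.17 (adjusted p = 0.0329). These 3 hairpin calls ended under 5 to 12 of the 24 other settings, and with the receptor-gene level as a covariate 0 of the 129 genes were lower, where the median over the class was -0.04.

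Of 12 tested markers of radial glia and neural stem cells 5 were higher and 1 lower, with a median of -0.05. Their differences ran from -2.04 to 1.97, and 7 of the 12 were negative. Prom1 and Vim, a stem cell surface gene and an intermediate filament gene, rose by 1.97 and 1.61 (adjusted p = 7.19e-05 and 0.000395). Markers of postmitotic neurons had 0 of 14 higher and 3 lower (median -0.52). The 3 were Gap43, Mapt at -0.56 and Elavl3 at -0.44 (adjusted p = 0.0304 and 0.0469 for the last 2). Without GBS replicate 2, 0 were lower. With the receptor-gene level as a covariate 12 were lower (median -1.37). With only the 6 GBS and Control arrays 8 were lower and 1 higher. The mean over the neuron markers on an array was 7.96 to 8.65 in GBS and 8.66 to 8.94 in Control. Their part in the falls of other neuronal genes was not tested. Astrocyte markers had 2 of 6 higher and 1 lower (median -0.01).

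Dcn was the 1 meningeal marker called of 10 tested: Col1a1, Col1a2 and Col3a1 differed by -0.19, -0.23 and -0.24, Ogn by 0.05, and Lum, Foxc1 and Foxd1 lay below the filter in level. Clic6 and Sostdc1 (2.14, adjusted p = 0.000189) were the 2 choroid plexus markers called of 7, while Ttr, its defining gene, read 5.63, 5.93 and 5.72 in GBS, against 6.03, 5.90 and 9.96 in Control. Only Control replicate 3 was high for Ttr. Microglia (9 tested), endothelium (8), erythroid (2) and midbrain and hindbrain (7) lists had 0 members called by limma in either direction. Oligodendrocyte genes had 0 of 7 higher and 3 lower, with Gpr17 at -0.53 (adjusted p = 0.0166). Without GBS replicate 2 or with the receptor-gene level as a covariate 0 of the 7 were lower, and with the replicate block 3. The mean over all list members on an array was 6.66 to 6.91 in GBS and 6.52 to 6.76 in Control for meninges, and 6.69 to 7.03 and 6.39 to 7.11 for choroid plexus. Of the 8 tested forebrain genes Emx2 and Lhx2 rose, Tbr1 and Bcl11b fell, and Emx1 read 7.90 to 8.13 in GBS and 8.21 to 8.32 in Control (adjusted p = 0.17). The part of other cell types in the rises of Dcn, Clic6 and Sostdc1 was not tested.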

How the data were processed

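Gene expression of whole newborn mouse forebrain or tumor was measured on 12 1-colour microarrays, 3 per genotype. The deposited values are on a log2 scale and, per the submitters' processing notes, come from Affymetrix Expression Console with the RMA method, no version being stated. The log scale was also read from the values, 2.82 to 13.83. Of 35556 probe sets, 21789 had 1 gene symbol, 1621 several and 12146 were not listed in the annotation, and 21698 symbols were updated through RefSeq (GRCm38.p6). The probe set of highest mean level over the 12 arrays stood for each of 19938 genes. The 14195 genes above the 40th percentile of an array on at least 3 arrays were tested with limma 3.58.1 in R 4.3.3 (lmFit, eBayes), with a mean per genotype over all 12 arrays, 8 residual degrees of freedom, and Benjamini-Hochberg adjustment over all genes tested. Genes with an adjusted p under 0.05 were called. All adjusted p-values in the text are from limma.

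Members and gene lists were chosen with earlier results of these data known. Classes were formed from symbol roots or written by hand. Named genes were Smo and Ctnnb1, the 25 largest rises and 15 largest falls without overlap between GBS and Control arrays, the 15 and 12 largest called transcription factor changes, up to 4 called members of each class with the lowest adjusted p and up to 2 that moved against it, any member of a small transcription factor family, and cell type markers. The other settings were 24 refits and stricter thresholds. The number of arrays limits the precision. The test was tried on simulated data.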

Additional observations from a re-analysis of the deposited data

Results flagged for a closer look

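Probe sets with no gene symbol or with several symbols entered no comparison of named genes. Of 7691 such probe sets that passed the same filter, 484 (6.29%) were higher and 208 (2.70%) lower in GBS than in Control at an adjusted p under 0.05 in limma. Both shares were below those of the 14195 genes tested, 11.0% and 4.35%. Some calls thus lie in data that the named genes do not cover.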

How the results depend on the processing

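Counts of genes higher and lower in GBS stayed within 1.5 times of 1556 and 617 with no filter, the stricter filter, the mean of probe sets, quantile normalization, and the trend and robust fits. Median centring gave 408 lower. Array weights, whose estimation warned of no convergence, gave 3610 higher and 4127 lower, the 6 GBS and Control arrays alone 3459 and 3095, and leaving out the 3 arrays that deviate together 3331 and 2686. The receptor-gene level as a covariate gave 793 and 1043, an adjusted p under 0.01 gave 591 and 61, and a change of at least 2-fold 487 and 26. Leaving out 1 array at a time gave 631 to 3268 higher and 78 to 2865 lower. GBS replicate 2 gave the lowest counts and GB replicate 2 the highest, and leaving out Control replicate 1, 2 or 3 gave 802, 910 or 661 higher and 114, 167 or 133 lower. With the replicate block the counts were 993 and 190. Replicate numbers did not pair the samples, since same-numbered GBS and Control arrays deviated with correlations of -0.128, 0.251 and -0.152.

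Of 4000 refitted values of 167 named genes, 3605 kept direction and side of the threshold, 361 lost the call, 18 gained one and 16 changed sign, all in genes without a call. With the receptor-gene level as a covariate Ckm was 0.01, Col1a1 0.04, Emx1 0.06, Zic5 0.11 and Ogn -0.89. Mir99a was 0.08 after quantile normalization, 0.06 after median centring, 0.12 with array weights, and 0.26, 0.34 and 0.22 without GBS replicate 1, GBS replicate 2 and Control replicate 1. Leaving out 1 array at a time moved Mir99a between -0.64 and 0.34 and Ogn between -0.12 and 0.30. Ogn was -0.12 and -0.02 without Control replicates 1 and 3, and -0.02 without the 3 deviating arrays. With the mean of probe sets Zic4 was -0.07 and Zic5 0.63 (adjusted p = 0.0112). The causes were not tested.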
